A study of Mus musculus with 8 samples.

Results

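The stress response described here is that of 10 growth-arrest and p53 target genes in mouse liver, *Cdkn1a*, *Gadd45a*, *Gadd45b*, *Gadd45g*, *Mdm2*, *Btg2*, *Ccng1*, *Plk2*, *Plk3* and *Trp53inp1*. They were listed by name, with earlier results of these data known, and each was found on 1 of the 23282 rows of the count files. All 10 passed edgeR's filter on low counts, which kept 12701 rows.

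The p53 protein is a transcription factor that accumulates when DNA is damaged or cells are stressed, and it switches on genes that halt the cell cycle, repair DNA or kill the cell. Several of these genes also respond to cytokines and stress kinases without p53, and in the liver many are early-response genes after injury or partial hepatectomy. The 10 genes fall into groups by their role. *Cdkn1a* encodes p21, an inhibitor of cyclin-dependent kinases. The *Gadd45* genes encode small proteins that bind PCNA and the upstream kinase of the p38 and JNK cascades. *Mdm2*, *Ccng1* and *Trp53inp1* encode feedback regulators of p53 itself, *Btg2* encodes an antiproliferative partner of the CCR4-NOT deadenylase, and *Plk2* and *Plk3* encode stress-responsive relatives of the mitotic kinase Plk1.

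Livers of C57BL/6 mice, labelled as males of 4 weeks of age, were profiled in 3 groups. The control group received saline, the endotoxemic group received LPS intraperitoneally at 25 mg/kg, and the LGK974 group received the same LPS after LGK974 at 60 mg/kg. Below, "after LPS" stands for the endotoxemic group and "with LGK974" for the LGK974 group. LPS is the endotoxin of gram-negative bacteria and activates Toll-like receptor 4, and LGK974 blocks Porcupine, the enzyme that attaches the lipid needed for Wnt secretion. Livers were collected 6 h after LPS, and LGK974 was given 2 h before LPS in most experiments. The labels of the LGK974 group name only LGK974, so its doses and all times come from the study's text. No group received LGK974 without LPS, and each RNA sample came from whole liver, in which fewer cells of a type and less RNA per cell cannot be told apart.

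Of 8 libraries, endotoxemic libraries 3 and 4 were identical to libraries 1 and 2 on every row and were not counted again, which left n = 2 in each group. Total counts ran from 9142116 to 15222439 per library. No source says whether the libraries came from separate mice, so p-values measure only the spread between these libraries. Sex-linked genes went against the label: *Xist* had between 1171 and 3115 counts in each control and endotoxemic library and 3 and 7 with LGK974, while the Y-linked *Ddx3y* had 0 in the former and 1755 and 1392 in the latter. Sex and LGK974 therefore cannot be told apart in any comparison that includes the LGK974 group. The hepatocyte markers *Alb*, *Ttr*, *Apoa1*, *Cps1* and *Tat* summed to between 71930 and 104100 CPM in controls, between 29950 and 46790 after LPS and to 34740 and 32030 with LGK974, with 4 of 5 lower in the endotoxemic group by edgeR. On rows in genomic order, 3 of the 6 neutrophil markers, *Csf3r*, *Retnlg* and *Mmp8*, summed to 1.763 and 2.353 CPM in controls, 56.52 and 70.78 after LPS and 33.06 and 34.51 with LGK974, with 3 of 3 higher in the endotoxemic group. The Kupffer cell markers *Clec4f*, *Vsig4*, *Timd4* and *Adgre1* summed to 88.64 and 94.38, 41.79 and 42.64, and 24.61 and 21.99 CPM in the same order. *Clec4f* and *Vsig4* were lower in the endotoxemic group, and *Timd4* (mean 3.114 CPM in controls and 4.261 after LPS) and *Adgre1* (12.77 and 12.37) were not called. The lymphocyte markers did not pass 3.805 CPM in any library. Among 5 sinusoidal endothelial markers, *Lyve1* was higher after LPS (mean 42.58 CPM in controls and 348.0 after LPS) and *Clec4g*, *Kdr* and *Oit3* were lower by edgeR, so that the sum, 228.7 to 239.8 CPM in controls, 368.3 to 387.1 after LPS and 426.1 to 534.3 with LGK974, followed *Lyve1*. Of 5 stellate cell markers, *Dcn* was higher after LPS and *Lrat*, *Col1a1*, *Reln* and *Colec11* were lower, while the sum ran from 428.2 to 571.3 CPM over all libraries. The monocyte markers *Ly6c2* and *Lyz2*, in genomic order, summed to 11.51 and 12.42 CPM in controls, 15.6 and 26.65 after LPS and 8.907 and 14.68 with LGK974. They went opposite ways after LPS. *Ly6c2* was 24.6-fold higher, whereas *Lyz2* had a mean of 11.33 CPM in controls and 4.421 after LPS and was not called (edgeR adjusted p = 0.052). The part of these markers in the results below was not tested.

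The rows of the count files follow the chromosomes, and 579 rows carry the symbol of a gene that lies elsewhere. None of the 10 genes was on such a row. Each stood between its genomic neighbours, as *Cdkn1a* between *Trp53cor1* and *Rab44*, *Mdm2* between *Cpm* and *Slc35e3*, and *Btg2* between *Fmod* and *Chit1*. Of the 10 rows around each gene, those out of place were *Ccl22* near *Gadd45a* and *Pik3cb* and *Tusc2* near *Gadd45g*. Reassigning symbols by genomic place therefore left the counts of the 10 genes as deposited.

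Most of these genes rose after LPS. Relative to controls, 8 of the 10 were higher in the endotoxemic group, 0 were lower, and *Plk2* and *Plk3* did not pass the test (edgeR's quasi-likelihood test, Benjamini-Hochberg adjusted p below 0.05). At an unadjusted p below 0.05 and with DESeq2, 0 were lower as well, against 26.8% and 22.6% of all rows. By edgeR's adjusted p, 20.4% of all tested rows were higher in this comparison and 23.0% were lower. The same 8 genes had endotoxemic libraries that both lay above both control libraries, against 37.9% of all tested rows, and 0 had both below, against 39.2%. The median log2 fold change of the 10 genes was 1.83, against 0.01 over all tested rows. Levels are given below as CPM, counts scaled to a common library total after TMM normalization, and are compared between groups for a gene and not between genes.

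**Figure D1:**
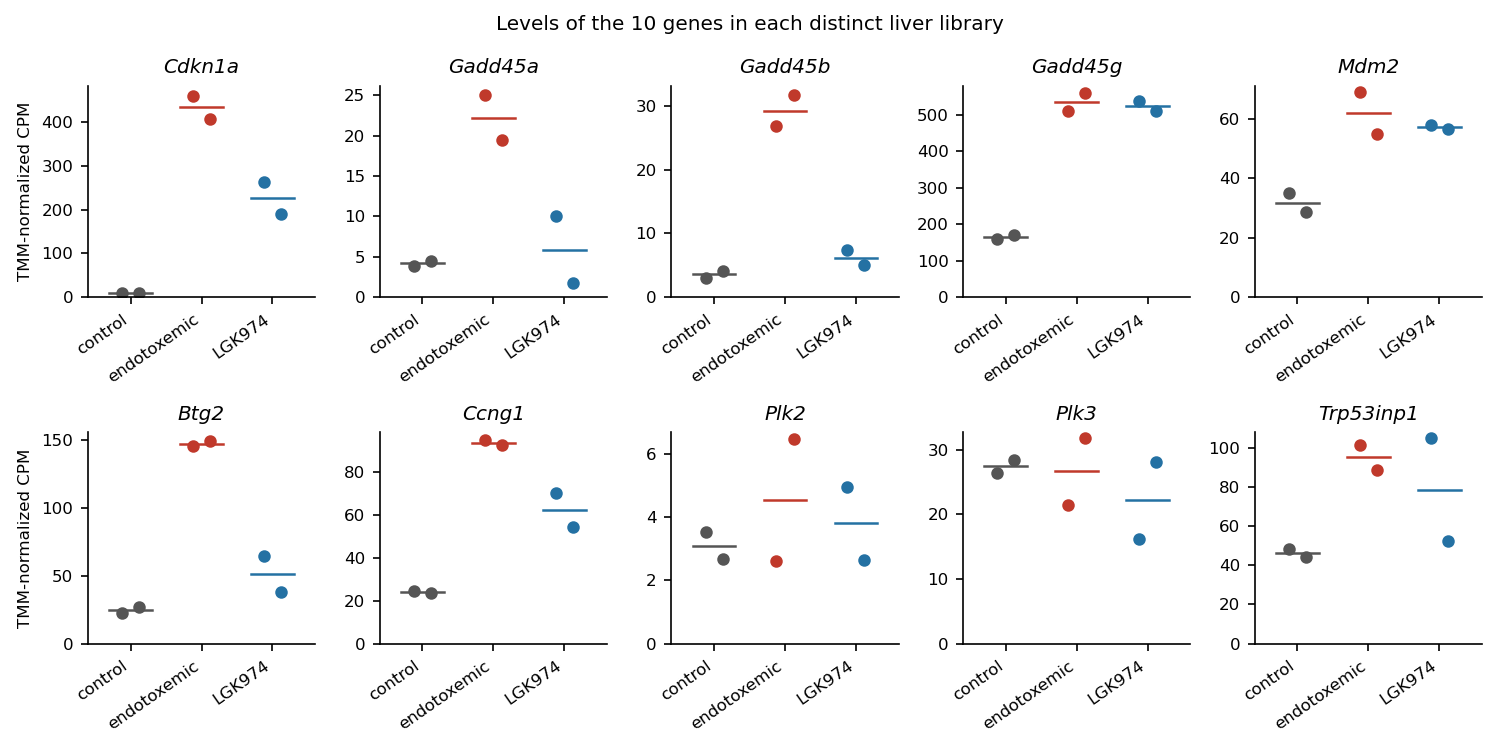
Levels of the 10 genes in TMM-normalized CPM (vertical axis, linear from 0) in the 2 distinct libraries of the control, endotoxemic and LGK974 groups; points are libraries and lines are group means. *Cdkn1a* stands at 9.281 and 9.346 CPM in controls and at 408.1 and 460.2 CPM after LPS, and the LGK974 points of *Gadd45a* and *Trp53inp1* lie far apart.

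*Cdkn1a* (chromosome 17 of GRCm38, 29090976 to 29100727, plus strand) had the largest rise of the 10. Its counts were 100 and 143 in controls, 4218 and 3829 after LPS and 3475 and 2793 with LGK974. In CPM, these were 9.281 and 9.346, 460.2 and 408.1, and 262.3 and 189.0. The 3 groups did not overlap, with the LGK974 libraries between the others. The mean level rose from 9.314 ± 0.0457 to 434.2 ± 36.8 CPM (SD, n = 2) after LPS (log2 fold change 5.54, SE 0.26, edgeR adjusted p = 1.16e-06), or 46.6-fold. In the LGK974 group the mean was 225.7 ± 51.8 CPM, lower than after LPS alone (log2 fold change −0.94, SE 0.21, edgeR adjusted p = 0.0366) and 24.2-fold higher than in the control group (log2 fold change 4.6, SE 0.25, edgeR adjusted p = 2.47e-06). The fall from the endotoxemic to the LGK974 group was no longer called without endotoxemic library 1 or 2 (adjusted p of 0.223 and 0.185), without control library 1 or 2 (0.1 and 0.0994), or with only those 2 groups in the fit (0.0919).

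The window of 300 bases around the upstream RefSeq start of *Cdkn1a* held the p53 decamer, the unit of p53 response elements, at 2 places. The stretch is shown because this gene changed most. It lies at chr17:29090896-29090955 on GRCm38, plus strand, from 83 to 24 bases before the start. Capitals mark both decamers and the second copy of ACATGT.
Cdkn1a: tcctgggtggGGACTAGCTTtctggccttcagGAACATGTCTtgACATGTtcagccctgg
The window around the other RefSeq start of *Cdkn1a*, from 29093519 to 29093818, held no p53 decamer. A p53 decamer on either strand was found in 8.36% of all 32851 RefSeq windows of that length. The pattern of ACATGT, any 4 bases and ACATGT again, which overlaps the second decamer and was written down after this stretch had been read, was found in 4 windows, or 0.0122%. These matches are letters in a window, and binding was not measured.

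The *Gadd45* genes all rose after LPS, and *Gadd45b* was lower with LGK974. *Gadd45a* (chromosome 6, 67035096 to 67037457, minus strand) had 3.898 and 4.444 CPM in controls, 24.99 and 19.51 after LPS and 10.04 and 1.692 with LGK974. The endotoxemic libraries were above all others, and 1 LGK974 library was above and the other below the control group. After LPS it was 5.31-fold higher (log2 fold change 2.41, SE 0.63, edgeR adjusted p = 0.0135). This call was lost without endotoxemic library 1 (adjusted p = 0.0579), control library 1 (0.0863) or control library 2 (0.0723). A noncoding gene on the other strand, *E230016M11Rik*, overlaps 859 bases of *Gadd45a* that do not include its 3′ end, and it had at most 5 counts in a library.

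*Gadd45b* (chromosome 10, 80930073 to 80932204, plus strand), which NF-κB and TGF-β are known to induce in hepatocytes, had 3.063 and 4.052 CPM in controls. It had 26.84 and 31.76 CPM after LPS and 7.398 and 5.008 with LGK974. The 3 groups did not overlap, and the LGK974 libraries lay nearer to the control group than to the endotoxemic group. The mean rose from 3.558 ± 0.7 to 29.3 ± 3.48 CPM (SD, n = 2) after LPS, or 8.16-fold (log2 fold change 3.03, SE 0.32, edgeR adjusted p = 8.42e-05). It was 6.203 ± 1.69 CPM in the LGK974 group, 0.212 of the endotoxemic level (log2 fold change −2.24, SE 0.3, edgeR adjusted p = 0.00603). That fall was no longer called without endotoxemic library 2 (adjusted p = 0.0798).

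*Gadd45g* (chromosome 13, 51846678 to 51848468, plus strand), a cytokine-induced member of the family, had 159.0 and 170.6 CPM in controls, 510.2 and 558.3 after LPS and 537.5 and 509.8 with LGK974. The last 4 values overlapped, and all were above the control group. The rise after LPS was 3.24-fold (log2 fold change 1.7, SE 0.19, edgeR adjusted p = 0.000109). No difference between the LGK974 and endotoxemic groups was called (log2 fold change −0.03, SE 0.18, edgeR adjusted p = 0.947).

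Near their starts, *Gadd45a* held a p53 decamer and *Gadd45b* and *Gadd45g* each held TATAAA, the TATA box. The stretches are shown to set the family members side by side, with the motif in capitals. They lie at chr6:67037428-67037457 (minus strand, within the bounds that GENCODE gives the gene), chr10:80930035-80930060 (plus) and chr13:51846638-51846663 (plus) on GRCm38.
Gadd45a: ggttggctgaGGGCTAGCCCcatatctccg
Gadd45b: cgggaagtcaTATAAAccgctcgcag
Gadd45g: cgagcctgtcTATAAAagggctctcc
TATAAA on either strand was found in 13.6% of all windows. The windows of *Gadd45b* and *Gadd45g* also held CACGTG, as did 7.15% of all windows.

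The feedback regulators of p53 rose after LPS as well. *Mdm2* (chromosome 10, 117688875 to 117710758, minus strand), the ubiquitin ligase that marks p53 for degradation, had 35.18 and 28.5 CPM in controls, 69.07 and 54.79 after LPS and 58.12 and 56.51 with LGK974. The control libraries were below all others, and the LGK974 libraries lay within the range of the endotoxemic group. It was 1.95-fold higher after LPS (log2 fold change 0.96, SE 0.21, edgeR adjusted p = 0.00585). The call was lost without endotoxemic library 1 (adjusted p = 0.0543) or control library 2 (0.0704).

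*Ccng1* (chromosome 11, 40748552 to 40755311, minus strand) encodes cyclin G1, which brings a phosphatase to Mdm2. Its levels were 24.5 and 23.4 CPM in controls, 94.82 and 92.42 after LPS and 70.05 and 54.54 with LGK974. The groups did not overlap, and the LGK974 libraries were in between. The mean rose from 23.95 ± 0.782 to 93.62 ± 1.7 CPM (SD, n = 2) after LPS, or 3.91-fold (log2 fold change 1.97, SE 0.21, edgeR adjusted p = 8.59e-05). It was 62.3 ± 11 CPM with LGK974, and this difference from the endotoxemic group did not pass the test (log2 fold change −0.59, SE 0.2, edgeR adjusted p = 0.119).

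*Trp53inp1* (chromosome 4, 11156431 to 11174379, plus strand), a stress protein that acts with p53-activating kinases, had 48.63 and 44.51 CPM in controls, 101.9 and 88.9 after LPS and 105.1 and 52.31 with LGK974. The first LGK974 library was above the endotoxemic group and the second was close to the control group. The rise after LPS was 2.05-fold (log2 fold change 1.03, SE 0.3, edgeR adjusted p = 0.0217). It was lost without any 1 of the 4 control and endotoxemic libraries, with adjusted p from 0.0653 to 0.121.

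*Mdm2* and *Ccng1* each held 1 p53 decamer, in capitals below, upstream of their RefSeq starts. These stretches lie at chr10:117710925-117710954 and chr11:40755452-40755481 on GRCm38, both on the minus strand.
Mdm2: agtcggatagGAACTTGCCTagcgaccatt
Ccng1: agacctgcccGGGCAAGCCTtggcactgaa
With *Cdkn1a* and *Gadd45a*, this made 4 of the 9 genes with a RefSeq window.

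*Btg2* (chromosome 1, 134075170 to 134079120, minus strand) had 22.74 and 27.25 CPM in controls, 145.4 and 149.2 after LPS and 64.62 and 37.83 with LGK974. The groups did not overlap, with the LGK974 libraries in between. The mean rose from 25.0 ± 3.19 to 147.3 ± 2.67 CPM (SD, n = 2) after LPS, or 5.89-fold (log2 fold change 2.56, SE 0.28, edgeR adjusted p = 9.92e-05). It was 51.22 ± 18.9 CPM in the LGK974 group, or 0.348 of the endotoxemic level (log2 fold change −1.52, SE 0.26, edgeR adjusted p = 0.0158). The fall lost its call without endotoxemic library 1 or 2 (adjusted p of 0.102 and 0.128). It was also 2.05-fold higher there than in the control group (log2 fold change 1.03, SE 0.27, edgeR adjusted p = 0.0156).

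The polo-like kinases did not pass the test in any comparison. *Plk2* (chromosome 13, 110395046 to 110400844, plus strand) had 3.527 and 2.68 CPM in controls, 2.619 and 6.502 after LPS and 4.982 and 2.639 with LGK974, from 24 to 66 counts a library. All groups overlapped (log2 fold change after LPS 0.56, SE 0.54, edgeR adjusted p = 0.432). *Plk3* (chromosome 4, 117128655 to 117133963, minus strand) had 26.45 and 28.36 CPM in controls, 21.39 and 31.87 after LPS and 16.23 and 28.08 with LGK974. Its groups overlapped as well (log2 fold change after LPS −0.04, SE 0.3, edgeR adjusted p = 0.924).

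The last 84 bases of *Plk3*, from 117128655 to 117128738, are also the last bases of *Tctex1d4* on the other strand. *Tctex1d4* had 185 and 303 counts in controls, 118 and 214 after LPS and 147 and 296 with LGK974. These were between 0.602 and 0.716 of the *Plk3* counts of the same library. The use of strand in counting is not given in the sources used here, so reads of the 2 genes at these 3′ ends cannot be told apart.

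*Btg2* and *Plk2*, which rose and did not pass the test, respectively, both held TGACGTCA, the cyclic AMP response element found in 1.79% of windows. Their stretches, shown because the same motif stands beside different outcomes, lie at chr1:134079304-134079331 (minus strand) and chr13:110394972-110394999 (plus strand) on GRCm38, with the motif in capitals.
Btg2: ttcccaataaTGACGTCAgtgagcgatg
Plk2: gcgctcgccgTGACGTCAcgaggccccg
Neither TTCNNNGAA, the element of STAT factors (8.3% of windows), nor the 1 fixed κB decamer that was searched in place of the variable NF-κB consensus (0.155%), nor the AP-1 site TGACTCA (5.2%) stood in any window of the 9 genes.

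Between the LGK974 and endotoxemic groups, *Cdkn1a*, *Gadd45b* and *Btg2* were lower with LGK974, 0 of the 10 genes were higher and 7 did not pass the test. Over all tested rows, 2.82% were lower and 2.8% were higher by edgeR. At an unadjusted p below 0.05, 5 of the 10 were lower and 0 higher, against 1399 and 1512 of the 12701 tested rows. DESeq2 called 4 lower and 0 higher, against 5.24% and 5.02%. *Gadd45a* and *Ccng1* joined these 3 genes in having both LGK974 libraries below both endotoxemic libraries, which was seen for 26.0% of all rows. All 10 log2 fold changes were below 0, with a median of −0.43 against 0.03 over all rows. This comparison shares its endotoxemic libraries with the one after LPS, so these falls are not independent of the rises there. *Gadd45a* had the second largest fall, −1.93, but its SE of 0.61 left it above the threshold (edgeR adjusted p = 0.102). For the genes that were not called, the log2 fold changes ± SE were −0.11 ± 0.21 for *Mdm2*, −0.28 ± 0.3 for *Trp53inp1*, −0.26 ± 0.54 for *Plk2* and −0.26 ± 0.3 for *Plk3*.

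These calls rested on few libraries. Without endotoxemic library 1, *Gadd45b* alone was called, without endotoxemic library 2 none of the 10 was, and without LGK974 library 1 there were 6. The 3 added genes were *Gadd45a* (log2 fold change −3.71, edgeR adjusted p = 3.2e-05), *Ccng1* (−0.78, edgeR adjusted p = 0.015) and *Trp53inp1* (−0.86, edgeR adjusted p = 0.00978). Without LGK974 library 2, *Gadd45a* was added as well (−1.15, edgeR adjusted p = 0.0327). With the identical endotoxemic libraries counted as 4 samples, 5 genes were called.

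**Figure D2:**
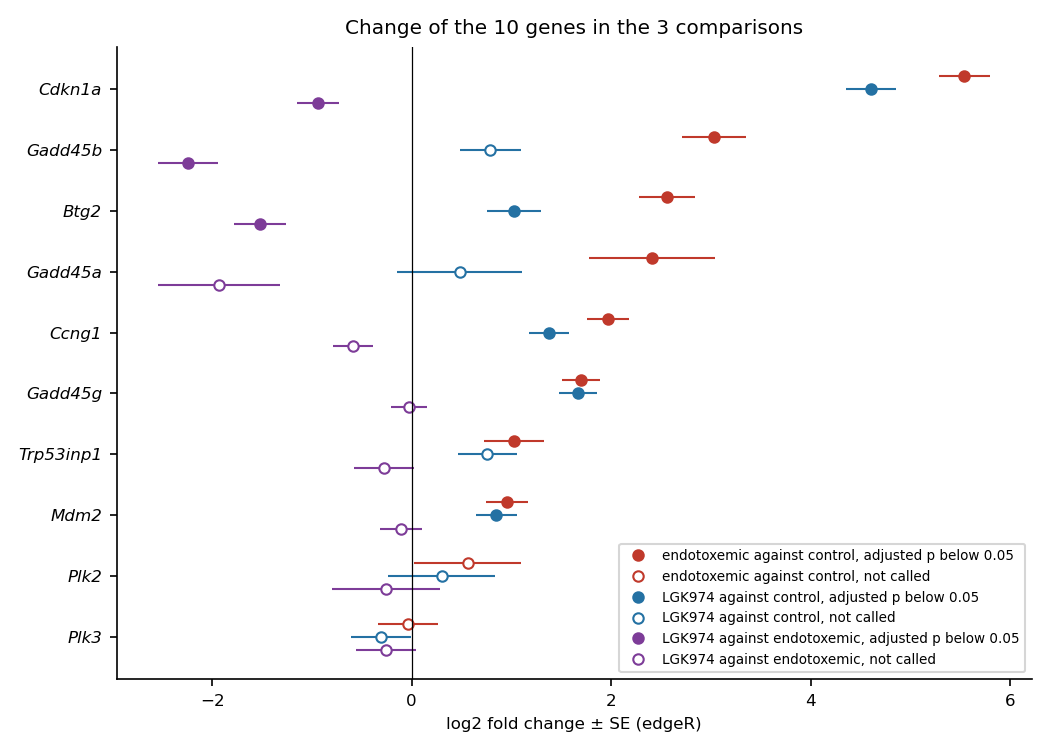
Log2 fold change ± SE of the 10 genes (edgeR) for endotoxemic against control, LGK974 against control and LGK974 against endotoxemic; filled points have an adjusted p below 0.05. For *Gadd45g* and *Mdm2* both changes from control lie close together (1.7 and 1.67, 0.96 and 0.85), whereas for *Gadd45b* and *Btg2* they lie apart (3.03 and 0.79, 2.56 and 1.03).

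With LGK974, *Cdkn1a*, *Gadd45g*, *Mdm2*, *Btg2* and *Ccng1* were higher relative to controls and 0 were lower, against 16.4% of all rows higher and 17.7% lower. At an unadjusted p below 0.05, 7 were higher and 0 lower, against 22.1% and 22.6% of all rows, and DESeq2 called 5 and 0, against 17.1% and 17.9%. Both LGK974 libraries lay above both control libraries for these 5 genes and for *Gadd45b* and *Trp53inp1*, as was the case for 33.8% of all rows, and 0 of the 10 genes had both below, against 34.3% of all rows. This comparison shares its control libraries with the first. *Gadd45g* was 3.18-fold higher (log2 fold change 1.67, SE 0.19, edgeR adjusted p = 0.000169), *Ccng1* 2.6-fold (1.38, SE 0.2, edgeR adjusted p = 0.000911) and *Mdm2* 1.8-fold (0.85, SE 0.21, edgeR adjusted p = 0.0134). *Gadd45b* (log2 fold change 0.79, SE 0.31, edgeR adjusted p = 0.083) and *Trp53inp1* (0.76, SE 0.3, edgeR adjusted p = 0.0819) did not pass the test. Neither did *Gadd45a* (0.48, SE 0.63), *Plk2* (0.3, SE 0.54) or *Plk3* (−0.31, SE 0.3), whose edgeR adjusted p were 0.599, 0.706 and 0.471. Without control library 1 or 2, *Mdm2* (adjusted p of 0.0507 and 0.128) and *Btg2* (0.131 and 0.0639) were no longer called, and without LGK974 library 1 the log2 fold change of *Btg2* was 0.6 in place of 1.03.

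By group means, 9 of the 10 genes had the order control, LGK974, endotoxemic from lowest to highest. The share of all tested rows with this order was not computed, and the comparisons share libraries, so 9 of 10 cannot be read as unusual. Neighbours in this order that did not pass edgeR's test were the LGK974 and endotoxemic groups for *Gadd45a*, *Gadd45g*, *Mdm2*, *Ccng1* and *Trp53inp1*, and the control and LGK974 groups for *Gadd45a*, *Gadd45b* and *Trp53inp1*. For *Plk2*, no pair of groups passed the test. *Plk3* had the order LGK974, endotoxemic, control, with 22.16 ± 8.38, 26.63 ± 7.41 and 27.41 ± 1.35 CPM (SD, n = 2), and none of these passed the test either.

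The 2 LGK974 libraries differed from each other more than the libraries of the other groups. The higher library over the lower had a median ratio of 1.34 over all tested rows in the LGK974 group, against 1.2 for the control and 1.21 for the endotoxemic group. Among the 10 genes, this ratio was 5.93 for *Gadd45a* and 2.01 for *Trp53inp1* in the LGK974 group. With LGK974 library 1 left out, *Gadd45a* was lower than in the control group (log2 fold change −1.30, edgeR adjusted p = 0.0226), and with library 2 left out it was higher (1.26, edgeR adjusted p = 0.0054). *Trp53inp1* was higher than in the control group with library 2 left out (1.18, edgeR adjusted p = 0.000235) and had a log2 fold change of 0.17 with library 1 left out. *Gadd45b* was higher (1.04, edgeR adjusted p = 0.0182) and *Plk3* was lower (−0.75, edgeR adjusted p = 0.0465) with library 2 left out. Each of these fits assumes that the remaining LGK974 library varies like the libraries of the other groups.

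**Figure D3:**
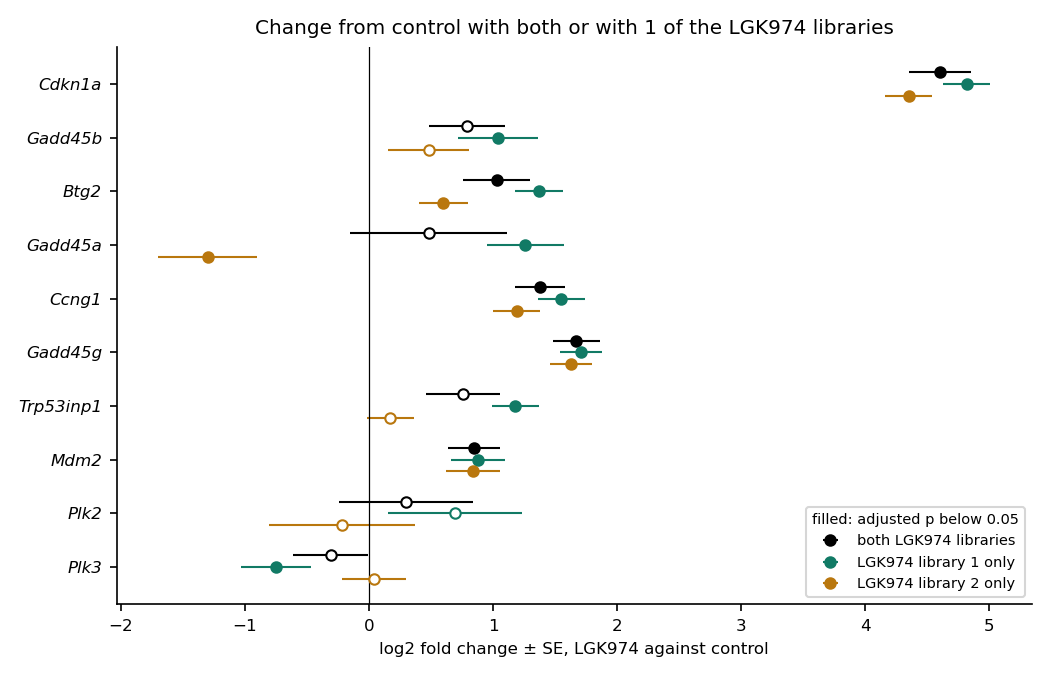
Log2 fold change ± SE of the 10 genes in the LGK974 group against the control group, with both LGK974 libraries or with 1 of them; filled points have an edgeR adjusted p below 0.05. *Gadd45a* changes direction between the libraries (1.26 with library 1 and −1.30 with library 2), and *Cdkn1a*, *Gadd45g*, *Mdm2*, *Ccng1* and *Btg2* stay called with either.

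For each of the 10 genes, the row in genomic order with the most similar pattern over the 6 libraries was found among 12154 tested rows, by the root mean square difference of centred log2 CPM. For *Cdkn1a* it was *Glipr2*, at a difference of 0.13, with 1.021 and 1.046 CPM in controls, 47.14 and 49.25 after LPS and 26.8 and 22.94 with LGK974. For *Gadd45a* it was *St5* (difference 0.35), which was likewise uneven in the LGK974 group with 68.39 and 10.02 CPM. The closest rows were *Gja4* for *Gadd45b* (0.19), *Mkl1* for *Gadd45g* (0.05), *Tbc1d24* for *Mdm2* (0.07), *Trim12a* for *Btg2* (0.15) and *Agfg1* for *Ccng1* (0.05). They were *Edc4* for *Plk2* (0.17), *Zscan21* for *Plk3* (0.07) and *Rell1* for *Trp53inp1* (0.04).

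Of 13 tested genes for p53 and its regulators, 1 was higher and 1 was lower after LPS, where 20.4% of all rows were higher and 23.0% were lower. *Trp53* had 84 and 78 counts in controls, 98 and 61 after LPS and 63 and 85 with LGK974, and its log2 fold change after LPS was 0.42 (edgeR adjusted p = 0.393). *Ppm1d*, a phosphatase that switches the p53 response off, was higher after LPS (log2 fold change 1.09, edgeR adjusted p = 0.0255). The checkpoint kinase gene *Chek2* was lower (−3.34, edgeR adjusted p = 0.0461), with 31 and 26 counts in controls and 0 and 4 after LPS, and its fitted value was −7.85 without endotoxemic library 2. The median of the list was 0.01, the same as over all rows.

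Of 14 tested targets of p53 that act in cell death, 8 were higher and 4 were lower after LPS, with a median log2 fold change of 2.3. The share lower was near the 23.0% of all rows, whereas 20.4% of all rows were higher. The apoptosome gene *Apaf1* rose from 18 and 37 counts to 336 and 321 (log2 fold change 4.09, edgeR adjusted p = 0.000162). The BH3-only gene *Pmaip1*, or Noxa, rose from 0 and 13 to 71 and 66 (3.95, edgeR adjusted p = 0.00679). Its fitted value was 3.1 without control library 1 and 9.41 without control library 2, when the control library left had 0 counts. *Perp* and *Ei24* fell (log2 fold changes −1.88 and −1.35, edgeR adjusted p of 0.000855 and 0.000706). The death receptor genes *Tnfrsf10b* and *Fas* stood on rows out of genomic order. *Tnfrsf10b* had log2 fold changes of 5.93 as deposited and 4.33 with reassigned symbols, while *Fas* turned from −2.06 to 2.54 (edgeR adjusted p = 5.6e-05). On the 12 tested genes in genomic order, 7 were higher and 3 were lower.

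With LGK974, 7 of these 14 genes were higher and 4 were lower relative to controls, against 16.4% and 17.7% of all rows. *Bax*, the pore-forming effector, had 11 and 21 counts in controls, 75 and 58 after LPS and 147 and 167 with LGK974. It was higher than in controls both after LPS (log2 fold change 2.56, edgeR adjusted p = 0.000612) and with LGK974 (3.20, edgeR adjusted p = 0.00021). So was the receptor gene *Eda2r* (3.91 and 3.82, edgeR adjusted p of 0.00481 and 0.00678). Its value with LGK974 ran from 2.79 to 5.63 with 1 library left out. *Bbc3*, or Puma, was lower with LGK974 (−1.74, edgeR adjusted p = 0.00344), while after LPS it had −0.76 and was not called (edgeR adjusted p = 0.0835). Between the LGK974 and endotoxemic groups, 0 of the 14 were called by edgeR, with 4 lower at an unadjusted p below 0.05, as were 1399 of the 12701 rows, and 1 lower by DESeq2.

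Targets of p53 in repair and metabolism had 4 genes higher and 2 lower of 13 tested after LPS, with a median log2 fold change of 0.12, and these shares lay near the 20.4% and 23.0% of all rows. *Phlda3*, which restrains Akt, was higher (4.94, edgeR adjusted p = 5.1e-05), as was the translesion polymerase gene *Polk* (1.71, edgeR adjusted p = 0.00282). *Psrc1* had 0 counts in both control libraries and 10 and 13 after LPS, at least 5.22-fold higher against a floor of 3 counts per control library. The sestrin gene *Sesn1* and the ferredoxin reductase gene *Fdxr* were lower (−1.91 and −1.64, edgeR adjusted p of 0.00771 and 0.00784). *Polk* was the only gene of this list called between the LGK974 and endotoxemic groups, and it was lower in the former (−1.40, edgeR adjusted p = 0.0401).

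**Figure D4:**
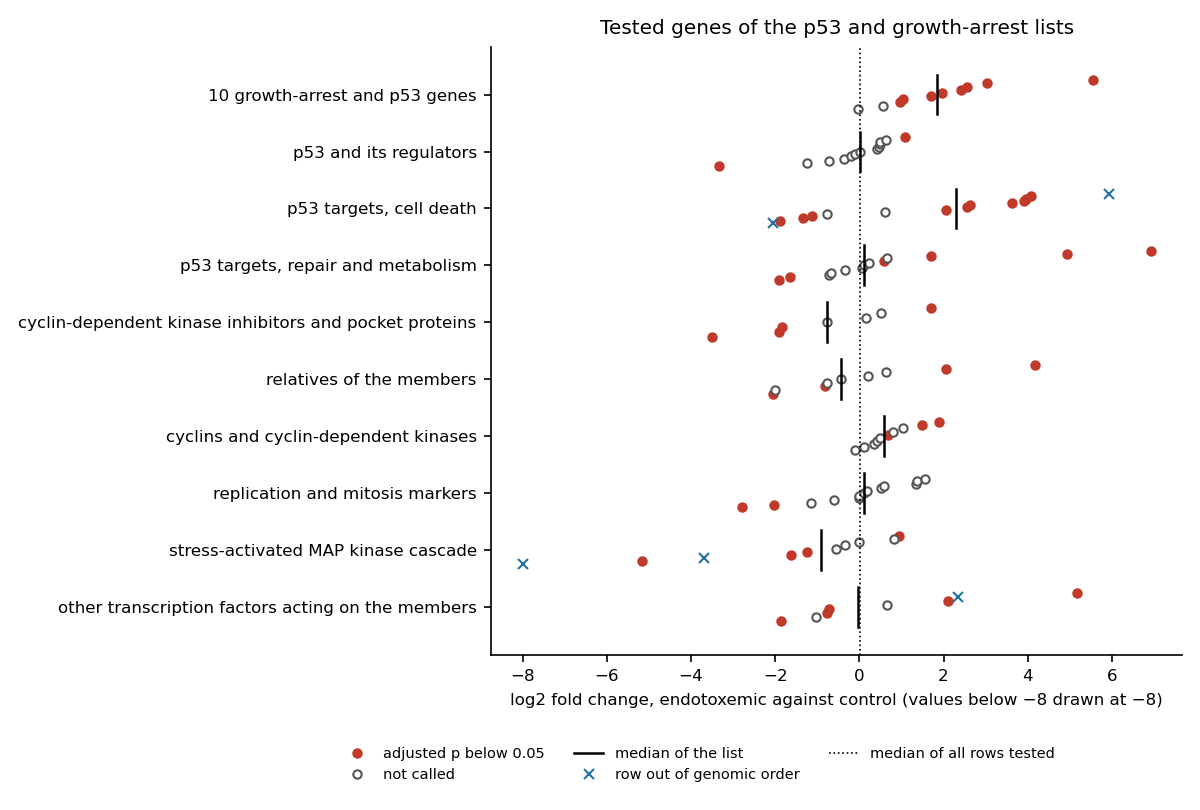
Log2 fold changes in the endotoxemic group against the control group (horizontal axis) for the tested genes of each list, with the list's median as a bar and the median of all rows dotted; crosses stand on rows out of genomic order. The 10 genes have a median of 1.83 and the cell death targets one of 2.3, whereas p53 and its regulators centre on 0.01; the point farthest right is *Psrc1*, whose fitted value rests on 0 control counts and is no bound.

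Of 7 tested genes for cyclin-dependent kinase inhibitors and pocket proteins, 1 was higher and 3 were lower after LPS, with a median log2 fold change of −0.77, and in 7 genes these counts are little different from 20.4% and 23.0% of all rows. *Cdkn1c*, the p57 relative of p21, was lower (log2 fold change −3.50, edgeR adjusted p = 0.000552), as was *Cdkn2c* (−1.83, edgeR adjusted p = 0.0136). Of the pocket proteins, *Rbl2* was lower (−1.90, edgeR adjusted p = 0.000506) and *Rbl1* was higher (1.71, edgeR adjusted p = 0.0242). *Cdkn1c* and *Rbl2* were also below their control levels with LGK974 (−3.23 and −1.31, edgeR adjusted p of 0.000845 and 0.00429).

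Of 9 tested relatives of the 10 genes, 2 were higher and 2 were lower after LPS, shares near the 20.4% and 23.0% of all rows. *Tob1* and *Tob2*, antiproliferative relatives of *Btg2*, were lower (log2 fold changes −2.05 and −0.81, edgeR adjusted p of 0.000113 and 0.00816). *Btg3* was higher (4.17, edgeR adjusted p = 0.000396), but its symbol stands on 2 rows with nearly the same counts, the second out of genomic order, so its value is uncertain. The second row was higher as well (3.94, edgeR adjusted p = 0.00036). *Plk4*, which starts centriole duplication, was higher (2.05, edgeR adjusted p = 0.0478).

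Of 10 tested cyclin and cyclin-dependent kinase genes, 3 were higher and 0 were lower after LPS, with 0 lower also at an unadjusted p below 0.05 and by DESeq2. Of all rows, 20.4% were higher and 23.0% were lower, or 26.8% lower unadjusted and 22.6% lower by DESeq2. Those higher were *Ccne1* (log2 fold change 1.89, or 3.5 without control library 2, edgeR adjusted p = 0.044 with all libraries), *Ccnd1* (1.5, edgeR adjusted p = 0.0044) and *Ccna2* (0.68, edgeR adjusted p = 0.0474). Of 13 genes of replication and mitosis, 0 were higher (2 at an unadjusted p below 0.05 and 0 by DESeq2) and *Rrm2* and *Aurka* were lower (−2.78 and −2.03, edgeR adjusted p of 0.0119 and 0.0258). With 1 library left out, these values ran from −3.31 to −2.36 for *Rrm2* and from −2.76 to −1.49 for *Aurka*. With LGK974, *Ccne1* (3.82, edgeR adjusted p = 0.00173), *Cdk1* (1.74, edgeR adjusted p = 0.0157) and the helicase genes *Mcm2* and *Mcm3* (2.18 and 0.86, edgeR adjusted p of 0.0226 and 0.046) were higher relative to controls. These were 2 of the 10 and 2 of the 13 genes, with 0 lower, beside 16.4% of all rows higher and 17.7% lower. With 1 library left out, the values ran from 3.19 to 5.43 for *Ccne1* and from 1.67 to 2.86 for *Mcm2*. None of these 4 genes was called between the LGK974 and endotoxemic groups (edgeR adjusted p of 0.0811, 0.37, 0.425 and 0.599), and after LPS the log2 fold changes of *Cdk1*, *Mcm2* and *Mcm3*, which were not called, were 1.04, 1.35 and 0.58.

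The kinases that Gadd45 proteins act through had 1 gene higher and 5 lower of 10 tested after LPS, with a median log2 fold change of −0.91. Over the 8 in genomic order, 1 was higher and 3 were lower, with a median of −0.45, nearer to the 20.4% and 23.0% of all rows. *Map2k4* was higher (0.95, edgeR adjusted p = 0.00631), and *Map2k6*, an activator of p38, fell from 82 and 130 counts to 0 and 4 (−5.16, edgeR adjusted p = 0.000831). The fitted value of *Map2k6* was −4.15 without endotoxemic library 1 and −9.67 without endotoxemic library 2, when the endotoxemic library left had 0 counts. *Map2k3* and *Mapk8* were out of genomic order. With reassigned symbols their log2 fold changes were −0.58 and 0.36 (edgeR adjusted p of 0.0403 and 0.422), whereas *Mapk8* had −3.69 as deposited and *Map2k3* was listed there with 0 counts in every endotoxemic library.

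Other transcription factors known to act on the 10 genes had 3 higher and 3 lower of 8 tested after LPS, with a median log2 fold change of −0.03. Over the 7 in genomic order, 2 were higher and 3 were lower, with a median of −0.72, beside 20.4% and 23.0% of all rows. *Trp63*, a relative of p53, had 0 and 1 counts in controls, 17 and 15 after LPS and 114 and 28 with LGK974 (log2 fold change after LPS 5.17, edgeR adjusted p = 0.00899). That fitted value ran from 4.52 to 7.32 with 1 library left out. *Klf6*, which can induce *Cdkn1a* without p53, was higher (2.11, edgeR adjusted p = 0.000957). *Foxo4*, *Foxo1* and *Cebpa* were lower (−1.85, −0.77 and −0.72, edgeR adjusted p of 0.00117, 0.018 and 0.0167). *Cebpa*, which keeps hepatocytes out of the cycle, was lower still with LGK974 than after LPS (−0.83, edgeR adjusted p = 0.0446). *Cebpb* stood out of genomic order, and its log2 fold change of 2.34 as deposited became 0.59 with reassigned symbols (edgeR adjusted p = 0.1).

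Many of the calls among the listed pathway genes rested on single libraries. Of 36 calls named by the rule after LPS, 17 were lost when 1 of the control or endotoxemic libraries was left out. *Ppm1d*, *Chek2*, *Rbl1*, *Ccna2*, *Rrm2*, *Foxo1*, *Cebpa* and *Plk4* lost theirs without any 1 of those 4 libraries, with adjusted p of up to 0.149, 0.24, 0.147, 0.253, 0.105, 0.157, 0.121 and 0.191 in that order. *Plk4* also lost its call without LGK974 library 2, with DESeq2, with no filter on low counts, with reassigned symbols and with the replicate block, as did *Chek2* with the block. *Cdkn2c* and *Tob2* (up to 0.0894 and 0.09) were lost without either endotoxemic library or control library 2, *Aurka* (0.187) without endotoxemic library 1 or either control library, and *Fas* as deposited (0.152) without endotoxemic library 2 or either control library. *Ccne1* (0.253) was lost without endotoxemic library 2 or control library 1, *Fdxr* (0.073) without endotoxemic library 2 or control library 2, *Sesn1* (0.0652) without endotoxemic library 2, and *Map2k4* and *Trp63* (0.0616 and 0.0552) without control library 1. Those of *Apaf1*, *Pmaip1*, *Perp*, *Ei24*, *Phlda3*, *Polk*, *Psrc1*, *Cdkn1c*, *Rbl2*, *Btg3*, *Tob1*, *Ccnd1*, *Map2k6*, *Klf6* and *Foxo4* passed under all alternatives that gave a value. The calls of *Polk* and *Cebpa* between the LGK974 and endotoxemic groups were lost without any 1 of the control and endotoxemic libraries (adjusted p of up to 0.237 and 0.24) and with only those 2 groups in the fit, and that of *Cebpa* also with the replicate block. Of 28 calls named with LGK974 against controls, 11 were lost with 1 library left out, among them *Eda2r* without control library 2 (0.0521), *Cdk1* without either control library (up to 0.0977), *Mcm2* without control library 2 or LGK974 library 2 (up to 0.144) and *Mcm3* without any 1 of 5 libraries (up to 0.215).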

How the data were processed

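The authors sequenced liver RNA with a kit labelled Lexogen QuantSeq, a method that reads 3′ ends. The catalogue number in the labels may be that of another kit, so whether counts grow with gene length is unsure. The authors deposited whole-number counts per row and library, named by gene symbol and without normalization. The submitters' processing notes name Bowtie2, edgeR and mm10; the counting program, its use of strand and the versions are not given in the sources used here. Identical libraries were counted once, and depth ran from 9142116 to 15222439 counts. In R 4.3.3, edgeR 4.0.16 was run on the 6 distinct libraries (filterByExpr, TMM, 1 quasi-likelihood model, common biological coefficient of variation 0.239), with Benjamini-Hochberg adjustment over 12701 rows at 0.05. The model was tested on simulated data. A floor of 3 counts covers counting error only. Standard errors were computed from the F statistic.

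Row order was compared with RefSeq positions on GRCm38 (23135 rows with a position, 579 more than 2 Mb out of order, 442 of these matched to the gene at their place). For reassigned symbols, the gene at the place of a matched row took its endotoxemic and LGK974 counts. Control counts stayed with the deposited symbol. This assumes that the symbols are right for the controls and displaced in the other groups, which was not tested. Gene positions come from GENCODE on GRCm38 and promoter windows (250 bases before to 50 after the start) from RefSeq on GRCm38.p6, with 9 of the 10 genes matched. *Trp53inp1* had no entry.

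The 10 genes and the lists were chosen with earlier results of these data known. Named list genes are up to 3 largest rises and 3 largest falls per list and comparison among called genes whose groups do not overlap. Alternatives were other filters on low counts, DESeq2 1.42.0, library totals without TMM, the endotoxemic libraries as 4 samples, a replicate block, only 2 groups in the fit, reassigned or omitted out-of-order rows, and each library left out.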

Additional observations from a re-analysis of the deposited data

How the results depend on the processing

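Each log2 fold change of the 10 genes was recomputed under 15 alternatives. After LPS, 137 of 150 values kept direction and call, 9 lost the call and 4 changed direction. For LGK974 against endotoxemic, 126 kept both, 8 lost and 8 gained the call and 8 changed direction. For LGK974 against control, 137 kept both, 4 lost and 6 gained the call and 3 changed direction.

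Between the LGK974 and endotoxemic groups, 881 rows were higher and 824 lower with no filter on low counts, 600 and 627 with DESeq2, 1711 and 1548 with the endotoxemic libraries as 4 samples (5 of the 10 genes lower), and 107 and 162 with only these 2 groups in the fit. With 1 library left out, 23 to 1175 rows were higher and 26 to 1067 lower, with 0 to 6 of the 10 genes lower. The lowest counts came without endotoxemic library 2 and the highest without LGK974 library 1. After LPS, 1517 to 3196 rows were higher and 1801 to 3523 lower with 1 library left out, with 5 to 8 of the 10 genes higher, and 5 without endotoxemic library 1 or control library 2. Against control, the LGK974 group had 1041 to 2608 rows higher and 1331 to 2761 lower, with 3 to 8 of the 10 genes higher (3 without control library 1 or 2) and 0 to 1 lower.

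Directions changed for *Plk3* after LPS with no filter (0.01), and, with reassigned symbols, for *Fas* (2.54 after LPS and 1.5 for LGK974 against control) and *Mapk8* (0.36 and 0.94). With 1 library left out, log2 fold changes after LPS were −0.24 to 1.13 for *Plk2* and −0.36 to 0.28 for *Plk3*. For LGK974 against endotoxemic they were −0.12 to 0.04 for *Gadd45g*, −0.27 to 0.04 for *Mdm2*, −0.80 to 0.54 for *Plk2*, −0.72 to 0.08 for *Plk3* and −0.86 to 0.14 for *Trp53inp1*. For LGK974 against control they were −1.30 to 1.26 for *Gadd45a*, −0.22 to 0.69 for *Plk2* and −0.75 to 0.04 for *Plk3*. The cause was not tested, except that symbols themselves move with reassignment. Against the endotoxemic group, *Gadd45a* was called without LGK974 library 1 or 2 (−3.71 and −1.15), with DESeq2 (adjusted p = 0.0221), with the endotoxemic libraries as 4 samples (0.0312) and with no filter on low counts.

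Replicate numbers did not pair the libraries, since deviations of same-numbered libraries correlated at 0.14, −0.0075 and 0.061 for the 3 pairs of groups. With the replicate block, 2577 rows were higher and 2908 lower after LPS, 330 and 355 for LGK974 against endotoxemic, and 2048 and 2259 for LGK974 against control, and no call of the 10 genes changed. Among the named list genes, *Chek2* and *Plk4* after LPS, *Cebpa* for LGK974 against endotoxemic and *Mcm3* for LGK974 against control lost their calls with the block.

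Among the 10 genes, the largest SE after LPS were those of *Gadd45a* (0.63) and *Plk2* (0.54).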
